A study of Homo sapiens with 4 samples.

Results

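The 8 genes described here are the arrestin-domain genes TXNIP, ARRDC1, ARRDC2, ARRDC3 and ARRDC4 and the genes of the glucose-sensing transcription factors MondoA (MLXIP), ChREBP (MLXIPL) and their partner MLX. They were measured by all 19 probe sets annotated to only one of these symbols, of 54675 probe sets on the array, and 0 probe sets joined one of them to another gene. They were chosen because ARRDC4 had already been seen to be lower on the KSR1 hairpin arrays, so their differences in that comparison are given as a description with no test. The cells were HCT116, an established colorectal carcinoma line, kept in DMEM with serum. The 4 groups had 1 array each. They were untransfected cells, which carried no vector, cells given a non-targeting short hairpin vector (shCTRL), and cells given hairpin #1 or hairpin #2 against KSR1, a scaffold protein of the RAF-MEK-ERK kinases. Per the labels, vectors were introduced by lipofection and clones were picked out with puromycin, which the untransfected cells are not described as having received. The sources used here do not say whether an array held 1 clone or several, or how much glucose the medium contained.

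Arrestin-domain proteins of this family are adaptors. They bind membrane proteins through an arrestin fold and recruit ubiquitin ligases of the NEDD4 family through short proline-rich motifs, which sends the cargo to endosomes. TXNIP also binds thioredoxin and lowers glucose uptake by removing glucose transporters from the cell surface, and ARRDC4, its close relative, acts on the same transporters. MondoA, paired with MLX, moves to the nucleus when phosphorylated glucose accumulates and binds paired E-box elements in front of TXNIP and ARRDC4, whose transcripts are therefore used as readouts of MondoA activity. ChREBP does the corresponding work mainly in liver, fat and gut.

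The sequences in front of TXNIP, ARRDC4 and ARRDC3 are shown because the first 2 genes are the textbook MondoA targets and the last 2 had the largest differences among the 8 genes. Each is the 250 bases before an annotated start site, read 5′ to 3′ on the gene's own strand from RefSeq (GRCh38.p14). Capitals mark every match to the E-box-like motif CACGNG, where N is any base, searched on both strands (CNCGTG on the other), and the palindrome CACGTG is one form of it.
TXNIP, chr1:145996580-145996829, minus strand: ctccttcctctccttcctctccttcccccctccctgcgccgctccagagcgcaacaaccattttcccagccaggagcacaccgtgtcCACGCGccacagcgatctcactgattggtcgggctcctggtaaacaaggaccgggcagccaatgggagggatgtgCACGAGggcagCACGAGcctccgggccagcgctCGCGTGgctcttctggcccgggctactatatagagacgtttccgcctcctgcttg
ARRDC4, chr15:97960453-97960702, plus strand: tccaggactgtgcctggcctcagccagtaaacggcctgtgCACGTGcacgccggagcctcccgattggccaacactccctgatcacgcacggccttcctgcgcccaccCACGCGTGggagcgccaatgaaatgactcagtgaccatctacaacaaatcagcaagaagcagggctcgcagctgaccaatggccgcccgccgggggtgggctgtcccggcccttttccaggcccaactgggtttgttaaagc
ARRDC3, chr5:91380098-91380347, minus strand: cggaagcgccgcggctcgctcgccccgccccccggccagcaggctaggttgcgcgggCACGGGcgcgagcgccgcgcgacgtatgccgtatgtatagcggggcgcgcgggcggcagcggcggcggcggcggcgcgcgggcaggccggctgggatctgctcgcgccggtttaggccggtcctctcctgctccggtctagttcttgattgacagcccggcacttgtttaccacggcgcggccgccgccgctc

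All 8 genes had at least 1 start-site window of 300 bases, 250 before and 50 after the start, and there were 11 windows in all because TXNIP, ARRDC2 and ARRDC3 had 2 each. CACGNG was found in 5 of the 11 windows and in 30.5% of all 35116 windows of the same length. The TXNIP window shown held 4 matches. A pair of them, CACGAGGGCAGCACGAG, lay from -88 to -72 relative to the start site and was made of CACGNG, 5 bases of any kind and CACGNG again. Only 20 of the 35116 windows, 0.0570%, held such a pair, and among the 8 genes it was found only in TXNIP. ARRDC4 had the palindrome CACGTG from -210 to -205, which 7.26% of windows held, and overlapping matches from -142 to -135. ARRDC3 had 1 match, from -193 to -188 of the start nearer the gene's 3′ end, and its other window had none. MLX had the palindrome from -50 to -45, and ARRDC2 had 3 matches in 1 of its windows. A looser inverted form, CANGNG, 5 bases and CNCNTG, was found in 0.564% of windows and in none of the 11. It leaves more bases free than the pair above, so their shares are not comparable. These matches describe letters in a window and were not tested for binding.

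**Figure D1:**
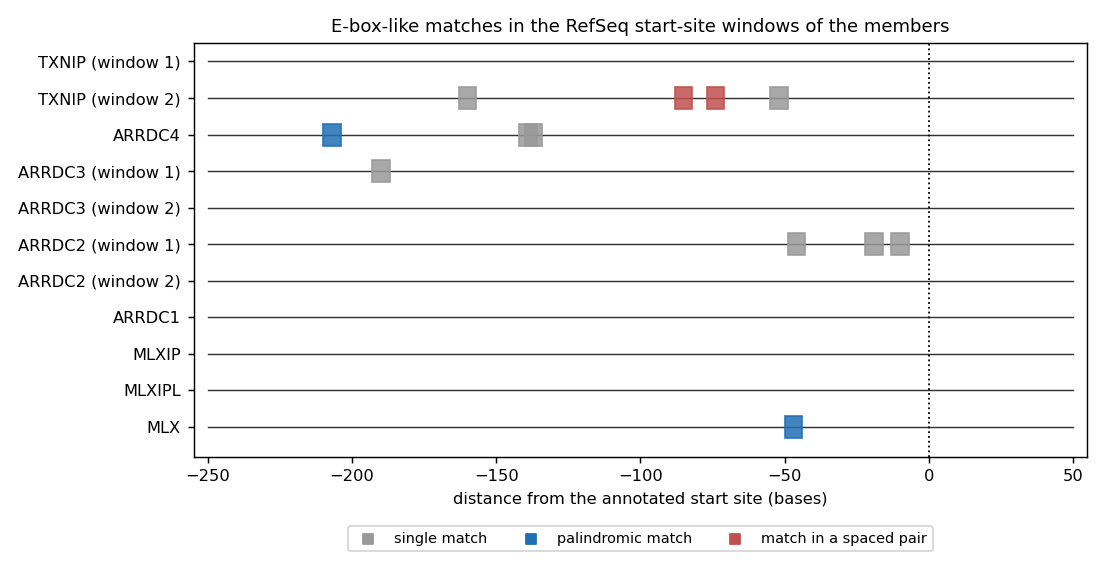
Position of every E-box-like match in the 11 start-site windows, in bases from the annotated start site (dotted line), with windows of a gene numbered by position along the chromosome. The spaced pair from -88 to -72 is in TXNIP window 2, ARRDC4 and MLX have the palindrome, and the windows of ARRDC1, MLXIP and MLXIPL have no match.

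Values are the deposited linear intensities, and differences are of log2(intensity + 16), which understates differences of dim probe sets. With no replicate arrays, each difference is set beside the SD of shCTRL minus untransfected over the 500 probe sets closest in mean log2 value, called here the local spread. It covers vector, selection, culture and array together. It is the spread of a difference between single arrays. A difference between means of 2 arrays would vary less if arrays vary independently, so for such differences it is only a rough guide. Pairs with hairpin #2 differed more widely. Over all analysed genes the SD was 0.28 for shCTRL minus untransfected and 0.35 for hairpin #2 minus hairpin #1. Against shCTRL and untransfected cells it was 0.25 and 0.28 for hairpin #1, and 0.37 and 0.37 for hairpin #2. The local spread is thus a narrow measure for hairpin #2. Array medians lay between 50.7 and 52.0. KSR1 itself had intensities of 209 without a vector, 211 with shCTRL, 141 with hairpin #1 and 171 with hairpin #2 on its brightest probe set. The differences from shCTRL were -0.53 and -0.28 with a local spread of 0.26, and its other 3 probe sets, all with a mean log2 value under the filter of 6.08 described below, had overlapping sides. Of 14 colon epithelial markers 12 passed that filter, EPCAM among them at 7855 to 8119. So did 4 of 10 fibroblast markers (COL1A1, DCN, THY1 and ACTA2), 1 of 10 leukocyte markers (CD79A) and 1 of 5 endothelial markers (PECAM1). On their brightest probe sets COL1A1 lay at 372 to 433, PECAM1 at 80.5 to 92.9 and the pan-leukocyte marker PTPRC at 15.5 to 17.4. The other COL1A1 probe sets were dimmer, from 193 to 228 for the next brightest down to 7.76 to 8.76. The other PECAM1 probe sets lay between 8.39 and 30.7. Summed over brightest probe sets, the fibroblast list had 893 without a vector, 868 with shCTRL, 823 with hairpin #1 and 794 with hairpin #2. COL1A1 gave 433 of the 893, and the part of this list in the differences below was not tested. For genes, the value is that of the brightest probe set, and 12468 of 19775 genes with a mean log2 value of at least 6.08, the median of all probe sets, were analysed. All 8 genes passed, as did 13 of their 19 probe sets.

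ARRDC4 and ARRDC3 were lower with both KSR1 hairpins, and the differences of the other 6 genes lay between -0.21 and 0.34 log2 units. ARRDC4, measured by 1 probe set, had an intensity of 416 without a vector, 505 with shCTRL, 110 with hairpin #1 and 177 with hairpin #2. Both hairpin arrays lay far below both others, and hairpin #1 was the lowest. ARRDC4 had 0.218 times the shCTRL intensity with hairpin #1 and 0.350 times with hairpin #2, and 0.265 and 0.425 times the untransfected intensity. The mean over the hairpin arrays minus the mean over the others was -1.60 log2 units (limma SE 0.24), or 3.04-fold lower on that scale, and the nearest arrays of the 2 sides were 1.16 apart. The local spread was 0.26. From the highest to the lowest, the order was shCTRL, untransfected, hairpin #2 and hairpin #1. The step of 0.27 between the first pair was about the local spread, and the steps of 1.16 and 0.61 after it were larger.

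ARRDC3, an adaptor linked to degradation of the beta-2 adrenergic receptor and of integrin beta 4, also has 1 probe set. It had an intensity of 1011 without a vector, 834 with shCTRL, 546 with hairpin #1 and 267 with hairpin #2. The sides did not overlap, and here hairpin #2 was the lowest. ARRDC3 had 0.654 times the shCTRL intensity with hairpin #1 and 0.320 times with hairpin #2. Its difference, taken in the same way, was -1.23 (limma SE 0.35), or 2.34-fold lower, with a gap of 0.60 and a local spread of 0.31. Without hairpin #2 the difference was -0.73, and without hairpin #1 it was -1.72. The order was untransfected, shCTRL, hairpin #1 and hairpin #2, and the first step of 0.27 was within the local spread while those of 0.60 and 0.99 were not. The 2 genes thus ranked the hairpins in opposite order. Hairpin #2 minus hairpin #1 was 0.61 for ARRDC4 and -0.99 for ARRDC3, each beyond its local spread.

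TXNIP, the best known of the group, was dim on every array. Its brightest probe set had an intensity of 56.0 without a vector, 63.98 with shCTRL, 47.2 with hairpin #1 and 52.2 with hairpin #2. Those values lie around the array median, and no detection calls were used, so they are not told apart from background. The hairpin arrays were both lower, but the difference of -0.21 was close to the local spread of 0.20 and the gap was 0.08. Against shCTRL alone the differences were -0.34 with hairpin #1 and -0.23 with hairpin #2, beyond that spread, and against untransfected cells they were -0.19 and -0.08, within it. The other 2 probe sets lay between 27.4 and 33.4, and their differences were 0.01 and -0.02 with overlapping sides. The 3 probe sets held percentiles of 34.4 to 54.98 of their arrays. At this signal no direction is read for TXNIP.

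**Figure D2:**
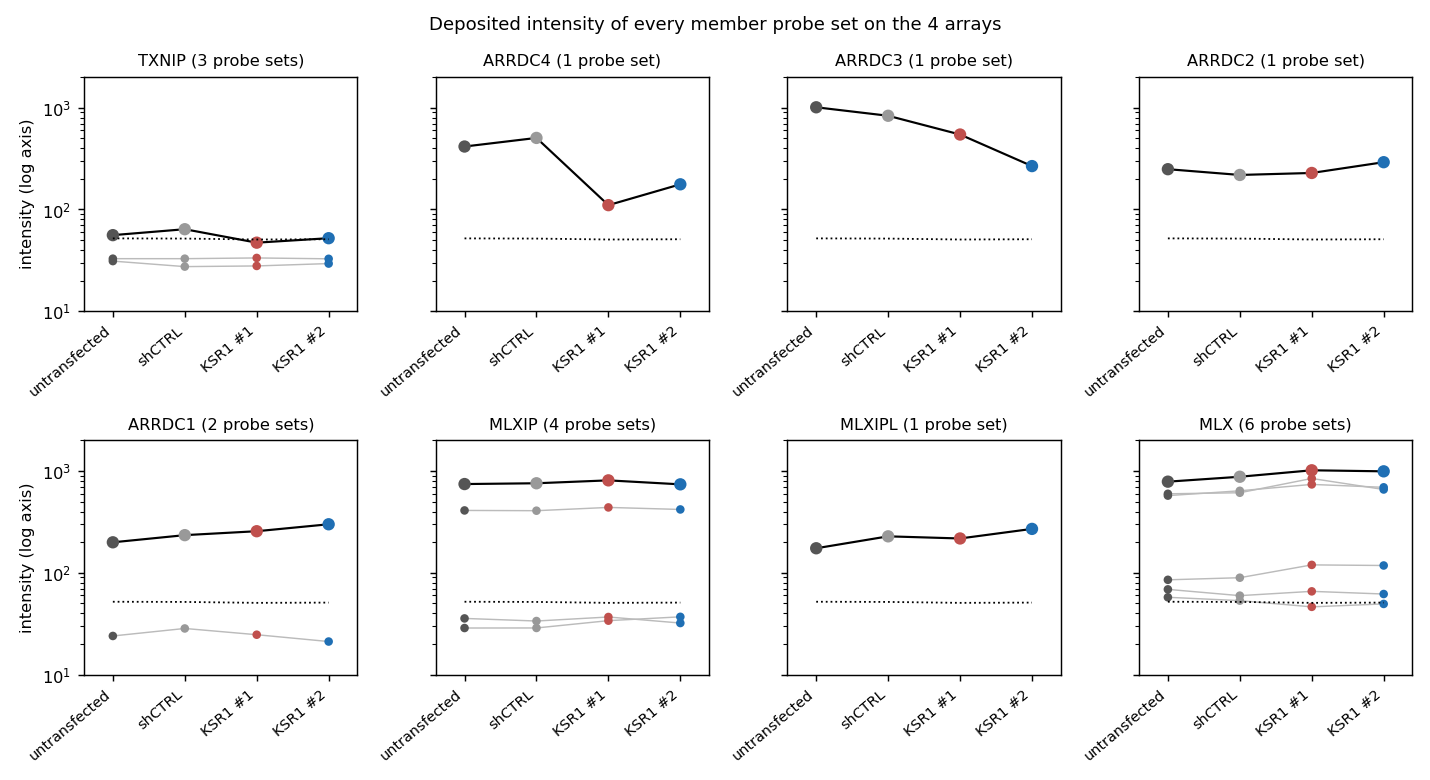
Deposited intensity (log axis) of the 19 probe sets on the 4 arrays, 1 panel per gene. Larger points joined in black are the brightest probe set, smaller ones joined in grey are the others, and the dotted line is the array median. ARRDC4 lies at 416 and 505 on the control arrays against 110 and 177 with the hairpins. ARRDC3 lies at 1011 and 834 against 546 and 267. The brightest TXNIP probe set lies around the median, at 47.2 to 63.98, and the others lie below it.

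The other arrestin-domain genes did not share the pattern. ARRDC2 had an intensity of 248.9 without a vector, 219 with shCTRL, 229 with hairpin #1 and 292 with hairpin #2. Its sides overlapped, and the difference of 0.14 was within the local spread of 0.28. ARRDC1, which recruits the budding protein TSG101 to form microvesicles at the plasma membrane, had 200, 235, 257 and 300.2 in the same order. Both hairpin arrays were above both others, with a difference of 0.34, a gap of 0.12 and a local spread of 0.28. Its second probe set was dim, at 21.1 to 28.4, with overlapping sides and a difference of -0.12. With the mean or the median over both probe sets the ARRDC1 difference was 0.11 and the sides overlapped. The share of analysed genes with both hairpin arrays above both others was 22.5%, and with both below 18.4%, so a non-overlap alone is common on these arrays.

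Of the transcription factor genes MLXIP was near level, and the brightest probe sets of MLXIPL and MLX were lowest in untransfected cells. MLXIP, encoding MondoA, had an intensity of 746 without a vector, 759 with shCTRL, 811 with hairpin #1 and 741 with hairpin #2, a difference of 0.04 with a local spread of 0.28. Its second bright probe set had 411, 408, 440 and 420, and the difference was 0.07. The remaining 2 were dim, between 28.7 and 36.9. The arrays thus show MLXIP signal on 2 bright probe sets, with all 4 arrays within 0.13 log2 units of each other on either. MLXIPL, encoding ChREBP, had 174, 228, 218 and 270 on its single probe set. Only the untransfected array was lower than the rest, shCTRL minus untransfected being 0.36 with a local spread of 0.29, and the hairpin arrays straddled shCTRL. Against untransfected cells MLXIPL differed by 0.30 with hairpin #1 and 0.59 with hairpin #2, and hairpin #2 minus hairpin #1 was 0.29.

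MLX, the shared partner of MondoA and ChREBP, was slightly higher with both hairpins on 4 of its 6 probe sets. The brightest had an intensity of 788 without a vector, 880 with shCTRL, 1019 with hairpin #1 and 995 with hairpin #2. Its difference was 0.27 with a gap of 0.17 and a local spread of 0.26. Against untransfected cells it differed by 0.36 and 0.33 with hairpins #1 and #2, and against shCTRL by 0.21 and 0.17, within that spread. The other 3 had differences of 0.23, 0.30 and 0.38, and all 4 had gaps between 0.10 and 0.35. Of the remaining 2, one overlapped at -0.01, and the other, under the filter at 46.3 to 57.5, was lower at -0.16. These probe sets report on 1 gene in the same 4 RNA samples and are not replicates.

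Counted by gene, 3 of the 8 had both hairpin arrays below both others, 2 had both above and 3 overlapped, against 18.4% below and 22.5% above among all analysed genes. At a size of 1 log2 unit (2-fold), 1 of the 8, ARRDC4, had both hairpin arrays below both others, and 0.0321% of analysed genes (4) did so. With a pseudocount of 64 in place of 16 the nearest ARRDC4 arrays of the 2 sides differed by -0.99, just inside that size, and 0 of the 8 met it. Above by that size were 0 of the 8 and 0.0241% of genes. Because ARRDC4 was the reason for choosing the group, nothing is read from these counts. The median difference over the 8 was 0.09 and over all analysed genes 0.02. Ordered from the lowest difference, ARRDC4 stood at place 8 and ARRDC3 at place 22 of 12468, and TXNIP at 1340.

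Single pairs of arrays separate the hairpins and the controls. Against shCTRL, 1 of the 8 genes was at least 1 log2 unit lower with hairpin #1 (ARRDC4, -2.04) and 2 with hairpin #2 (ARRDC3, -1.59, and ARRDC4, -1.43). The background shares were 0.433% and 0.922% of genes, and 0.112% and 0.979% were higher by that size, none of the 8 among them. Against untransfected cells the same genes were past that size, ARRDC4 at -1.77 with hairpin #1 and -1.16 with hairpin #2 and ARRDC3 at -1.86 with hairpin #2, with background shares of 0.505% and 0.987%. None was higher by that size, as 0.249% and 1.29% of genes were. These comparisons share arrays. ARRDC3 with hairpin #1 was at -0.60 against shCTRL and -0.87 against untransfected cells. None of the 8 genes was past that size between shCTRL and untransfected cells, where 0.369% of genes were lower and 0.481% higher by it. None was past it between the hairpins either, where 0.642% were lower and 1.07% higher with hairpin #2. There ARRDC3 was just inside it at -0.99, and past it at -1.03 with a pseudocount of 1. Hairpin #1 against untransfected cells and hairpin #2 against shCTRL share no array, and in these ARRDC4 had -1.77 and -1.43 and ARRDC3 -0.87 and -1.59.

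**Figure D3:**
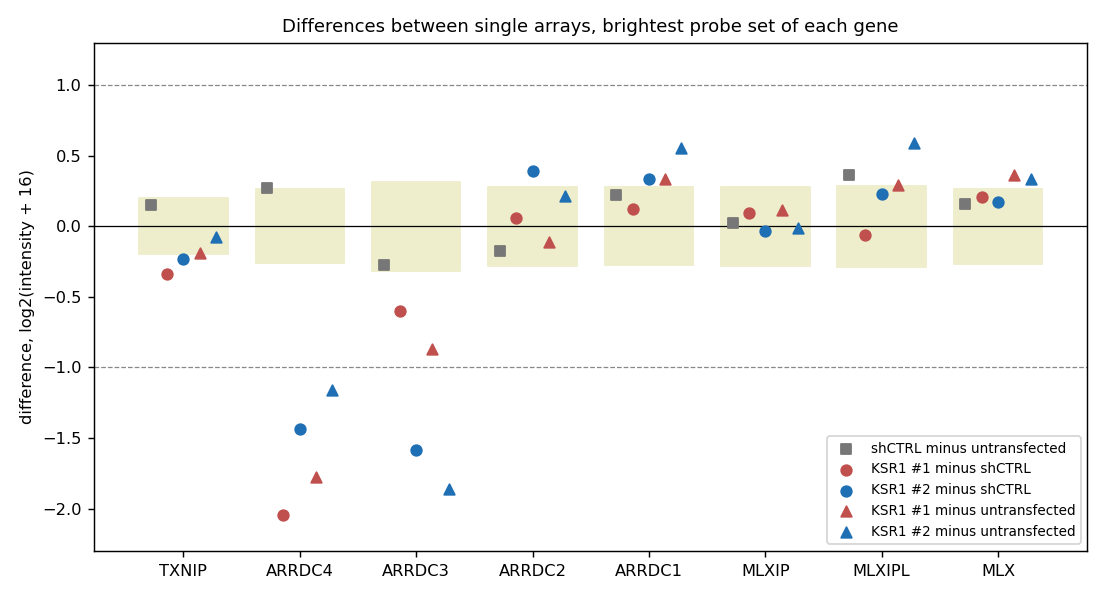
Differences between single arrays for the brightest probe set of each gene, in log2(intensity + 16). Shaded boxes are plus and minus the local spread (0.20 to 0.31), and dashed lines mark 1 log2 unit. The hairpin points of ARRDC4 (-1.16 to -2.04) and ARRDC3 (-0.60 to -1.86) lie below their boxes, and no point of the other 6 genes reaches 1 log2 unit.

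**Figure D4:**
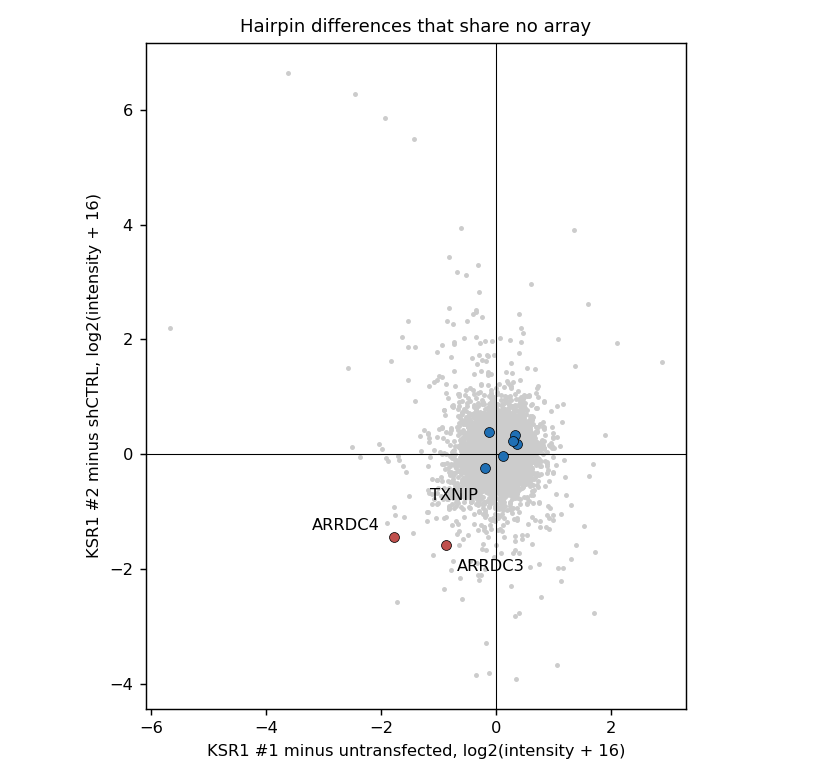
Each of the 12468 analysed genes (grey) by hairpin #1 minus untransfected (horizontal) and hairpin #2 minus shCTRL (vertical), in log2(intensity + 16), which share no array. ARRDC4 (-1.77, -1.43) and ARRDC3 (-0.87, -1.59), in red, lie apart from the main cloud at lower left, and the other 6 genes, in blue, lie within it.

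The genes with profiles most like ARRDC4 over the 4 arrays were found by the distance between log2 profiles centred on their own means, among 12460 genes. The closest was ALDOC, a glycolytic aldolase, at a distance of 0.54, with intensities of 1785 without a vector, 1689 with shCTRL, 646 with hairpin #1 and 646 with hairpin #2. Next came PPP1R14C, an inhibitor of protein phosphatase 1 (0.57), PTCH1, the Hedgehog receptor (0.58), GNAL, a G protein alpha subunit (0.65), and DDIT4L, a relative of the mTORC1 inhibitor DDIT4 (0.66). PTCH1 had intensities of 323, 350, 135 and 167 in the same order, so it was also lowest with hairpin #1. For TXNIP the closest were RHEX, PBXIP1, ZNF692, ZNF865 and POU2F2, at distances of 0.018 to 0.026, and a profile as flat as that of TXNIP has many near neighbours. For ARRDC3, looked up after its values were seen, the closest were CFAP96 (0.20), SAP30 (0.22), GEM (0.28), ADM (0.31) and SPRY1 (0.38). ADM, the peptide adrenomedullin, had 7819, 7337, 4537 and 1813, lowest with hairpin #2 as ARRDC3 was. These are likenesses over 4 arrays, with 1 RNA sample behind each.

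The wider pathway was examined in 7 lists with 105 genes, of which 84 were analysed. By limma, comparing both hairpin arrays with both others over all 12468 genes, 0 of the 84 passed an adjusted p of 0.05, with a smallest adjusted p of 0.64, and 0% of all genes did. At an unadjusted p under 0.05 were 14 of the 84 (16.7%) and 882 of all genes (7.07%). Both hairpin arrays were below both others for 23 of the 84 (27.4%, background 18.4%) and above for 18 (21.4%, background 22.5%), and 0 reached a gap of 1 log2 unit. The count below was 15 with the median over a gene's probe sets, where 77 genes were analysed. The share of all genes under that setting is not given here. The lists were chosen with earlier results on glycolysis genes in these data known.

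Other targets of MondoA and ChREBP lay near the background shares. Of 18 analysed, 5 were lower with both hairpins (27.8%, background 18.4%), 4 higher (22.2%, background 22.5%) and 9 overlapped, with a median difference of -0.02 (0.02 over all genes). HK2, the hexokinase that phosphorylates glucose, had intensities of 2483 without a vector, 2027 with shCTRL, 1310 with hairpin #1 and 1174 with hairpin #2, a difference of -0.85 (SE 0.14). Its 2 dim probe sets were higher with both hairpins, at 0.52 and 0.21. BHLHE40, a transcriptional repressor, differed by -0.61 (SE 0.11). ELOVL6, a fatty acid elongase, differed by 0.36 (SE 0.13), and malic enzyme ME1 by 0.33 (SE 0.20). The last was lowest in shCTRL, where it differed from untransfected cells by -0.53. Of the 20 genes with the spaced pair in a start-site window, 15 besides TXNIP were analysed. Among these 3 were lower (background 18.4%), 6 higher (background 22.5%) and 6 overlapped, with a median of 0.01. The lowest was P4HA1, a collagen prolyl hydroxylase subunit, at -0.74, and the highest KCTD5 at 0.34, both named after their values were seen.

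The list for glucose uptake and phosphorylation also held genes of other sugar phosphate steps, such as GPI. Of its 13 analysed genes, 5 were lower (38.5%, background 18.4%), GPI among them, and 2 higher (15.4%, background 22.5%). The other 6 overlapped, and the median of the list was -0.01. SLC2A3, the glucose transporter GLUT3, had intensities of 93.8 without a vector, 272 with shCTRL, 43.0 with hairpin #1 and 40.9 with hairpin #2. Both hairpin values were below the array median, and the largest step was between shCTRL and the rest. Its 3 probe sets gave differences of -1.62 (SE 0.47), -1.14 and -0.63, and probe sets of this gene may also read its near-identical paralog SLC2A14. GPI, the next enzyme after hexokinase, had 10181, 9505, 6169 and 6759 in the same order, a difference of -0.61 (SE 0.10). SLC2A6 differed by 0.59 (SE 0.30), with 181 on the hairpin #2 array and 79.4 to 92.2 on the others. SLC2A1, the glucose transporter GLUT1 that TXNIP and ARRDC4 act on, is named after its values were seen. The brighter of its 2 probe sets had 1081 without a vector, 1506 with shCTRL, 750 with hairpin #1 and 3313 with hairpin #2. On it the hairpins lay on opposite sides of both other arrays, and the dimmer probe set is not described here.

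**Figure D5:**
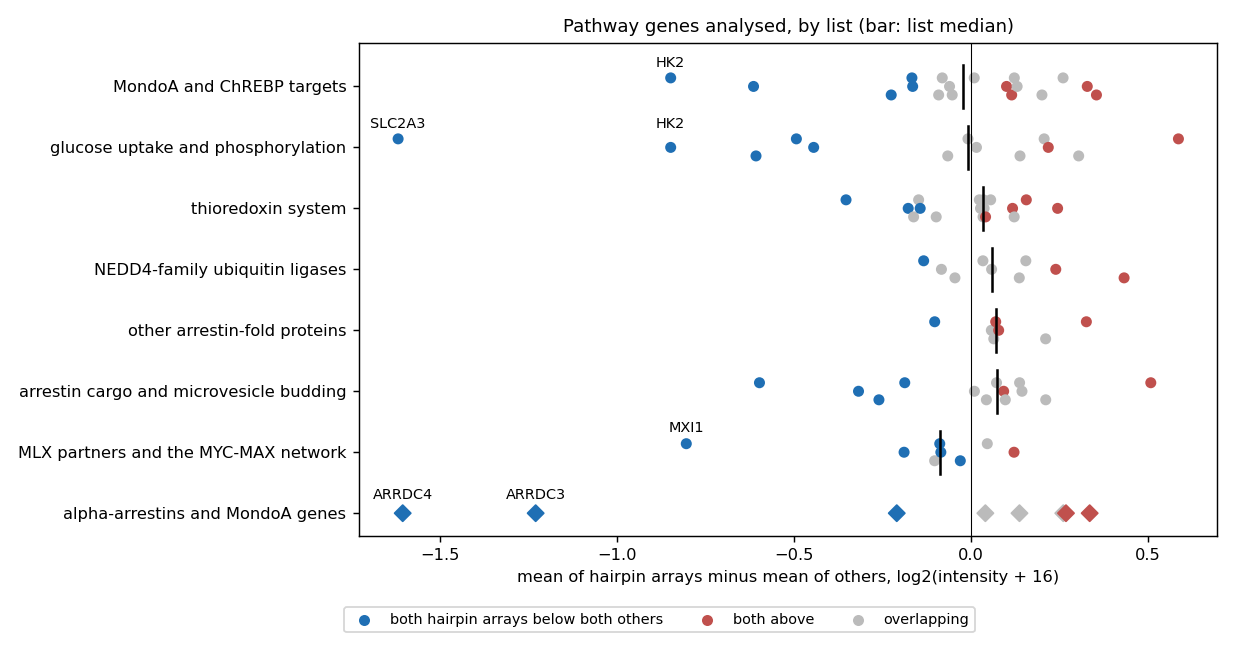
Hairpin mean minus the mean of the other arrays, in log2(intensity + 16), for each analysed gene of the 7 lists (circles, vertical bar at the list median) and the 8 genes (diamonds). Blue marks both hairpin arrays below both others, red both above and grey overlap. List medians lie between -0.09 and 0.07, and SLC2A3 (-1.62), HK2 (-0.85) and MXI1 (-0.80) are the lowest list genes.

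The thioredoxin system, whose central protein TXNIP binds, was near level. Of 17 genes 3 were lower (17.6%, background 18.4%), 4 higher (23.5%, background 22.5%) and 10 overlapped, with a median of 0.04. Differences ran from -0.35 (SE 0.10) for RRM1, the large ribonucleotide reductase subunit, to 0.25 (SE 0.12) for NXN, nucleoredoxin. The peroxiredoxins PRDX4 and PRDX2 differed by -0.18 and -0.16. Of 9 NEDD4-family ligases 1 was lower (11.1%, background 18.4%) and 2 higher (22.2%, background 22.5%), with a median of 0.06. WWP2 had the largest difference, 0.43 (SE 0.11), and its 4 probe sets ranged from -0.17 to 0.43. ITCH, a ligase that ubiquitinates TXNIP, differed by 0.24, SMURF2 by 0.16 and SMURF1 by 0.14. Among 7 other arrestin-fold genes 1 was lower (14.3%, background 18.4%) and 3 higher (42.9%, background 22.5%), with a median of 0.07. VPS26A, a retromer subunit, differed by 0.33 (SE 0.10) and the beta-arrestin ARRB1 by 0.21, while ARR3, an arrestin of cone photoreceptors, and RGP1 differed by -0.10 and 0.08.

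Among 13 genes of arrestin cargo and microvesicle budding, 4 were lower (30.8%, background 18.4%) and 2 higher (15.4%, background 22.5%), with a median of 0.07. EGFR, a receptor tyrosine kinase, had intensities of 664 without a vector, 811 with shCTRL, 452 with hairpin #1 and 510 with hairpin #2, a difference of -0.60 (SE 0.14). Of its 2 other bright probe sets, one had 843, 518, 411 and 403 in the same order, a difference of -0.68 with a gap of 0.32, and the other overlapped at 0.07. TFRC, the transferrin receptor, differed by 0.51 (SE 0.19), the insulin receptor INSR by -0.32 (SE 0.09) and ITGB4, a cargo of ARRDC3, by -0.26 (SE 0.11). Of 8 genes of the MYC-MAX network around MLX, 5 were lower (62.5%, background 18.4%), 1 higher (12.5%, background 22.5%) and 2 overlapped. The 5 include MXD3, MYC and MGA, named after their values were seen, with small differences of -0.09, -0.08 and -0.03. The median of the 8 was -0.09. MXI1, a MAX-binding repressor, had 3482 without a vector, 3272 with shCTRL, 1953 with hairpin #1 and 1903 with hairpin #2. Its difference was -0.80 (SE 0.09, limma adjusted p = 0.64), with the arrays of each side within 0.09 log2 units of each other. MYCL differed by -0.19, MAX by 0.12 and MXD1, which can pair with MLX, by -0.10. For MXD1, shCTRL minus untransfected was -1.07.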

How the data were processed

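The deposited values were linear intensity values, 1 per probe set and array, which the authors had already summarised; the sources used here do not give the background correction or the scaling between arrays. Array medians were alike, so no further scaling was applied. On arrays no sequencing depth applies, and their number, 1 per group, limits the precision. Per the labels, biotinylated cRNA was made from 2.5 micrograms of total RNA.

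Values were converted to log2(intensity + 16). The platform annotation gave the gene names: 41097 had 1 symbol, 1801 several and 11777 none. Of the first, 41043 matched a RefSeq gene by identifier and 0 symbols needed an update. The size rule was 1 log2 unit. limma 3.58.1 (R 4.3.3; lmFit, eBayes, Benjamini-Hochberg adjustment) compared the 2 hairpin arrays with the 2 others, with 2 residual degrees of freedom. Its spread and standard errors (SE) are those of hairpin #1 against #2 and of shCTRL against untransfected cells, with no repeat culture of any kind. The code for it was tested on simulated data. Other steps used Python 3.11.15.

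The members and lists were chosen with earlier results of these data known. Named genes were every member, KSR1, the 5 closest profiles of TXNIP and of ARRDC4, and the 4 largest differences of each list. Genes outside this rule are said to be named after their values were seen, and the cell type markers came from marker lists. Alternatives covered the pseudocount, scaling, probe-set summary, filter and each array in turn. Protein sequences were not used here. List genes without a value were not analysed here.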

Additional observations from a re-analysis of the deposited data

How the results depend on the processing

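Over the 10 alternatives run for each of the 8 genes, ARRDC4 kept a negative difference between -1.91 and -1.30, and ARRDC3 one between -1.72 and -0.73, in both cases the range over leaving out each array in turn. The ARRDC4 differences of hairpin #1 from shCTRL and from untransfected cells were -1.71 and -1.46 with a pseudocount of 64, which shrinks differences by its construction. That of hairpin #2 from untransfected cells was then -0.99, so ARRDC4 no longer met the size of 1 log2 unit and 3 genes did. The TXNIP difference was 0.0066 with the median over its probe sets, and it lay between -0.28 and -0.13 without single arrays. Of the other 5 genes, none moved by more than its local spread under these alternatives, though ARRDC1 was at 0.11 with overlapping sides with the mean or median over probe sets, and without single arrays ARRDC2 and MLXIP reached -0.03 and -0.02, across 0. MLXIP was at -0.0046 with quantile normalization.

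The genes with a gap of 1 log2 unit, 4 lower and 3 higher, are few and depend on the settings. The higher count was 1 with the mean over probe sets, 1 with their median and 1 with a mean log2 value of at least 8. With an array left out, which loosens the rule because fewer arrays have to agree, 23 were lower and 6 higher without untransfected cells, 24 and 12 without shCTRL, 53 and 77 without hairpin #1, and 16 and 6 without hairpin #2. Of the list genes, 23 were lower and 18 higher. The lower count was 15 with the median over probe sets and 14 with a mean log2 value of at least 8, where fewer genes were analysed. Without single arrays between 29 and 33 were lower and between 29 and 33 higher. The shares of all genes under these settings are not given here, so nothing is read from these counts. The limma count was 0 under each alternative that kept all 4 arrays, over all genes and over the lists. Without an array, 1 side has a single array, so no limma count is read there. No paired analysis was possible because each group has 1 array. Dim probe sets limit what can be said of TXNIP and of SLC2A3 with the hairpins.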

Other observations

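Antisense genes next to 2 of the arrestin-domain genes are measured by probe sets of their own, outside the 19. ARRDC3-AS1 had an intensity of 53.0 without a vector, 57.2 with shCTRL, 55.5 with hairpin #1 and 49.2 with hairpin #2. It was near the array median throughout, with overlapping sides and a difference of -0.06, and at this signal no direction is read. ARRDC1-AS1 had 115, 95.6, 96.7 and 120 in the same order. Its sides overlapped too, with a difference of 0.03.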
